A study of Mus musculus with 4 samples.

Results

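The score deposited under the name Mo_CD34_SC.Score1 (Mo_CD34_SC in what follows) was 1 of 6 scores given for every spot of a Visium array, a slide that captures RNA on barcoded spots under a tissue section. It was taken over all spots of the table, and 7271 of 7271 spots carried a value. SC is read here as stromal cell, from the names of the score and of the 3 others of the same kind, Mo_Inmt_SC, Mo_Nr4a1_SC and Mo_Nr4a1Inmt_SC. The sources used here give neither the genes behind the score nor the scoring method. The spot table holds no single genes, so the name could not be checked against Cd34 or any other marker.

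The tissue was mouse draining lymph node, collected 14 days after immunization and 3 days after the start of gavage, in 1 group with no untreated or control samples. The study, by its title, addresses how germinal centre B cells become plasma cells where the dark zone meets the medulla. Cryosections of 10 µm, lying 50 µm apart in depth, gave 4 sections (A to D) with 1650, 1876, 1858 and 1887 spots. The sources used here do not give the agents of immunization and gavage, the strain, the age or the number of animals, and the section names in the table carry eYFP, a yellow fluorescent protein, without saying which allele drives it. All sections share 1 sample ID stem, so the spread and the p-values below measure only the differences between these sections, which may be technical.

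CD34 is a cell surface sialomucin known from vascular endothelium and from fibroblastic stromal cells of the capsule, of vessel walls and of the medulla of mouse lymph node. Stromal cells build the scaffold of the node: fibroblastic reticular cells carry the T zone, follicular dendritic cells hold antigen in the germinal centre light zone, and medullary stromal cells line the cords in which plasma cells gather. Sets of node stromal cells named for Cd34, for Inmt (a methyltransferase) and for Nr4a1 (an orphan nuclear receptor) are known in mouse, and no source used here says whether the deposited scores use those sets. A spot covers several cells, so a high value can come from more cells of a kind or from more of their RNA per cell, and these cannot be told apart.

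Depth differed between sections. Total UMIs (unique molecular identifiers, each 1 captured transcript) ran from 8016778 in section D to 20518149 in section B, and 134 of 7271 spots had fewer than 1000 UMIs. Each section held 2 separate pieces of tissue, called upper and lower by their place on the array. Scores have no true zero, so differences are given and no ratios, and a value above 0 has no meaning beyond its place on this scale.

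Mo_CD34_SC was highest in the region the authors named Medulla and lowest in the germinal centre light and dark zones (LZ and DZ). Over the spots of a section its mean was −0.0177, −0.0138, −0.0170 and −0.0156 for sections A to D, with a standard deviation over spots of 0.0287 ± 0.00120 (mean ± SD of 4 sections). The section means thus lay close together compared with the range over spots. Values above 0 were found in 27.5%, 30.5%, 25.1% and 26.8% of spots. The highest spot of each section reached 0.103, 0.102, 0.117 and 0.139 and lay in Medulla each time, while the lowest spot lay between −0.100 and −0.0946.

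**Figure D1:**
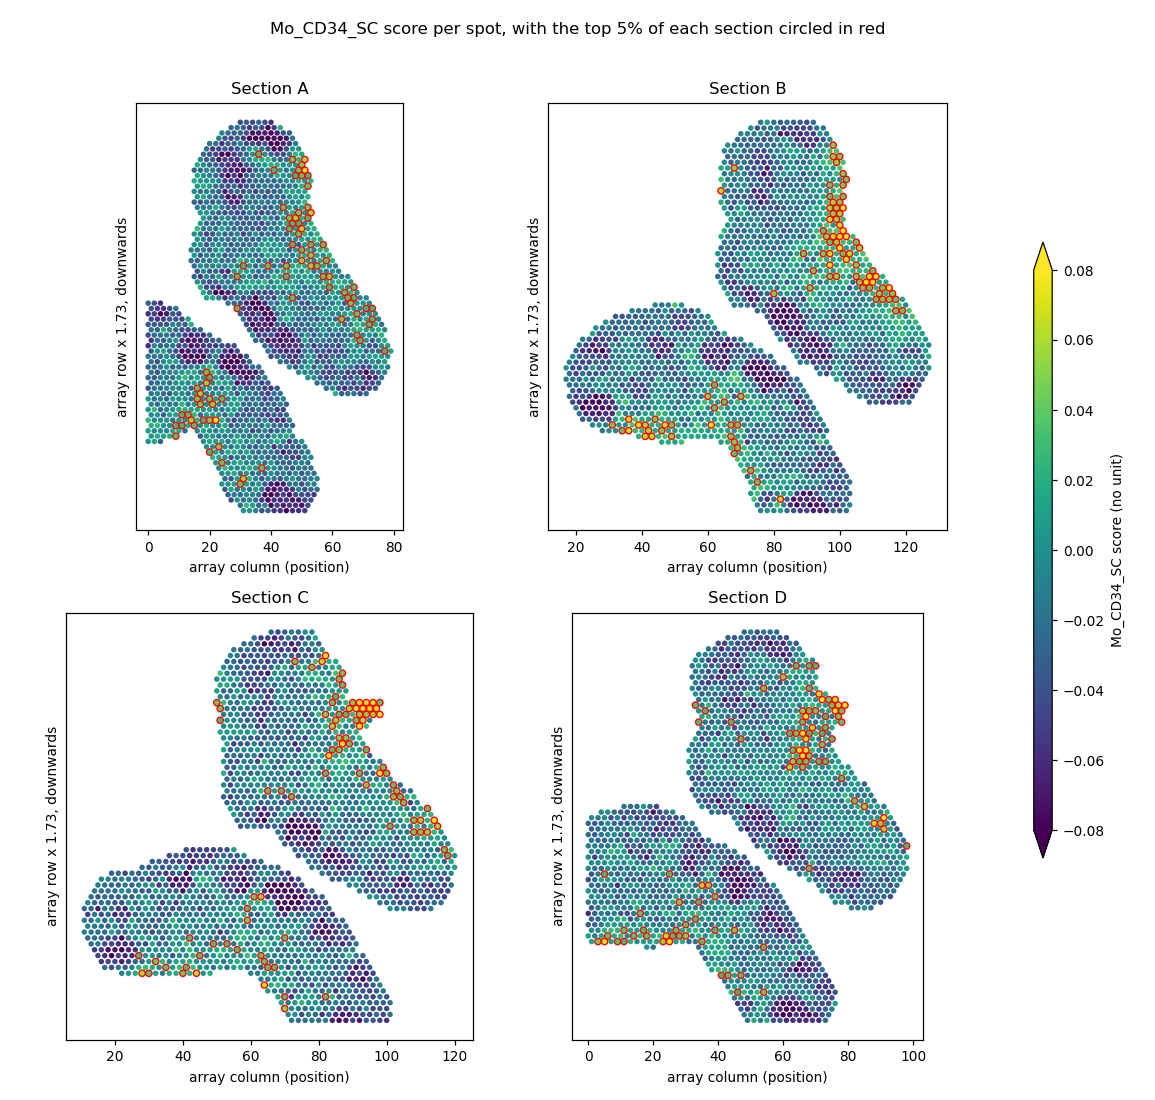
Maps of the Mo_CD34_SC score at each spot of sections A to D, drawn at the spots' array positions (column across, row downwards, scaled so that neighbours are equally far apart), with colour for the score and red circles for the 5% of spots with the highest score in each section. The circled spots run along 1 flank of the upper piece and along the lower border of the lower piece, and the dark patches mark the lowest scores.

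In Medulla, the compartment of cords and sinuses through which plasma cells and lymph leave the node, the mean score was 0.00784, 0.0192, 0.00665 and 0.00507 for sections A to D (0.00969 ± 0.00644, n = 4, 2130 spots). Section B, which had the most UMIs, stood above the other 3. GC_Medulla Border, the name for medullary spots beside a germinal centre, had −0.00947, −0.00139, −0.00871 and −0.00891. All 4 of these values lay below every Medulla value, and the difference from Medulla was 0.0168 ± 0.00287 within sections. The share of spots above 0 was 64.9%, 80.4%, 57.3% and 54.4% in Medulla and between 24.7% and 43.8% in GC_Medulla Border.

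The T zone, where T cells meet dendritic cells on a reticular network, followed with −0.0155, −0.0128, −0.0153 and −0.0128 (−0.0141 ± 0.00152, n = 4, 1834 spots). GC_T Border had −0.0165, −0.0176, −0.0135 and −0.0163, a range that overlaps the T zone's, and the T zone minus GC_T Border difference of 0.00190 ± 0.00294 was positive in 3 of 4 sections and smaller than its own spread. These were the only neighbours in the order of levels whose difference changed sign between sections.

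The B zone, the follicle outside the germinal centre, had −0.0250, −0.0222, −0.0248 and −0.0250 (−0.0242 ± 0.00135, n = 4, 1294 spots). GC_B Border lay lower, at −0.0338, −0.0327, −0.0361 and −0.0351, with no overlap with the B zone. The germinal centre was lowest. DZ, where B cells divide, had −0.0593, −0.0513, −0.0526 and −0.0496, and LZ, where they are selected on follicular dendritic cells, had −0.0613, −0.0574, −0.0569 and −0.0521. DZ exceeded LZ in each section, by 0.00374 ± 0.00185, although the ranges of the section means overlap. Of the LZ spots, 0 of 414 had a score above 0. No source used here says how the authors assigned the region names, and the names may rest on the expression of the same spots, so these levels are described and were not tested.

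**Figure D2:**
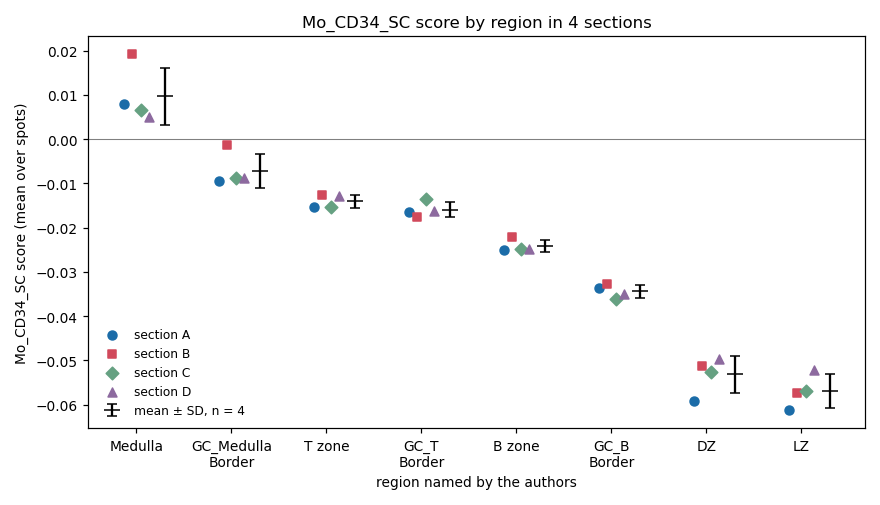
Mean Mo_CD34_SC score (no unit, vertical axis) over the spots of each of the 8 named regions (horizontal axis), with 1 point for each of sections A to D and a bar for the mean ± SD of the 4 sections. Medulla is the sole region with all 4 section means above 0, from 0.00507 to 0.0192, and DZ and LZ lie between −0.0613 and −0.0496.

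Region names accounted for 55.8%, 60.9%, 49.1% and 46.2% of the variance of the score over spots, so a good part of it lay within regions. Within Medulla the standard deviation over spots was 0.0229 ± 0.00218, and that of the T zone was 0.0174 ± 0.000746. The following comparisons therefore looked inside the regions, first at the outer border of the tissue.

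Spots with fewer than 6 neighbouring spots in the table were taken as the tissue edge, and spots with all 6 as inner. There were 247, 260, 262 and 263 edge spots in sections A to D, 1032 or 14.2% of all. Of these, 521 were B zone spots, 335 Medulla and 118 GC_B Border. The T zone, at 1.10% ± 1.70 of edge spots, scarcely reached the edge. The positions of the spots with a score set this class, and the score itself does not enter it. Edge and inner spots could thus be compared by a test over the sections. The class also depends on which spots were kept, since 120 spots marked as tissue carry no score here.

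Edge spots had higher scores than inner spots in every section. Over whole sections the edge mean was −0.0129, −0.00470, −0.0108 and −0.0126 against inner means of −0.0186, −0.0153, −0.0180 and −0.0161. The edge minus inner difference was 0.00675 ± 0.00298 (n = 4) and positive in 4 of 4 sections (exact permutation test, flipping the signs of the section differences, two-sided, p = 0.125, adjusted p = 0.25 over 6 edge comparisons). With 4 sections the smallest p this test can give is 0.125, so no comparison here could pass 0.05, and the number of sections with a direction is given in its place. The whole-section value rested partly on the mean: with medians over spots it was 0.00157, positive in 3 of 4 sections. With the edge widened by 1 step it was 0.00145, and within the lower piece 0.00112, positive in 2 of 4 sections.

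Within Medulla the edge mean was 0.0112, 0.0278, 0.0179 and 0.00932 in sections A to D, and the inner mean was 0.00721, 0.0175, 0.00448 and 0.00433. The edge was higher in each of the 4 sections, by 0.00819 ± 0.00447 (exact sign-flip permutation test, p = 0.125, adjusted p = 0.25). Edge and inner ranges overlap between sections, because section B lies high in both classes. Under the alternatives other than leaving a section out, the lowest Medulla difference was 0.00438, within the lower piece (3 of 4 sections). The highest was 0.0134, with a linear dependence on log10 UMIs taken out, both on the scale of the score. That fit was made over all spots of a section, where the score fell with UMIs (mean Spearman's rho −0.444). Within Medulla the score rose with UMIs (0.208), so the fit does not correct for depth inside that region.

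Within the B zone the edge mean was −0.0184, −0.0145, −0.0216 and −0.0217, against inner means of −0.0291, −0.0272, −0.0268 and −0.0275. Here the edge and inner ranges did not overlap, and the difference was 0.00858 ± 0.00368 in favour of the edge in 4 of 4 sections (exact sign-flip permutation test, p = 0.125, adjusted p = 0.25). It fell to 0.00374, positive in 3 of 4 sections, when the edge was widened by 1 step, and was 0.0121 within the upper piece and 0.00466 within the lower. The B zone and Medulla differences were not told apart: their difference was 0.000391 ± 0.00627 (exact permutation p = 0.875) and changed sign when section A or B was left out.

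In GC_B Border the edge minus inner difference had no steady direction. It was −0.00575, 0.00302, −0.00120 and −0.00111 in sections A to D (−0.00126 ± 0.00358, exact sign-flip permutation p = 0.625, adjusted p = 0.75), with both signs among the sections. It was 0.00441 within the upper piece (4 of 4 sections above 0), −0.00589 within the lower (1 of 4) and −0.00934 with the edge widened by 1 step (0 of 4). Tested directly, it lay below the Medulla difference by 0.00944 ± 0.00379 in 4 of 4 sections (exact permutation p = 0.125, adjusted p = 0.312 over 5 comparisons). Germinal centre spots seldom reached the edge: in LZ, 4, 4 and 5 edge spots in sections A, B and D gave a difference of 0.0124 ± 0.00258 (exact permutation p = 0.25, the smallest that 3 sections allow; 0.00178 with the edge widened by 1 step), and in DZ the value of 0.00155 ± 0.00714 was smaller than its spread. The T zone and GC_Medulla Border each had enough edge spots in 1 section, with differences of −0.00380 in section A and 0.0128 in section D.

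**Figure D3:**
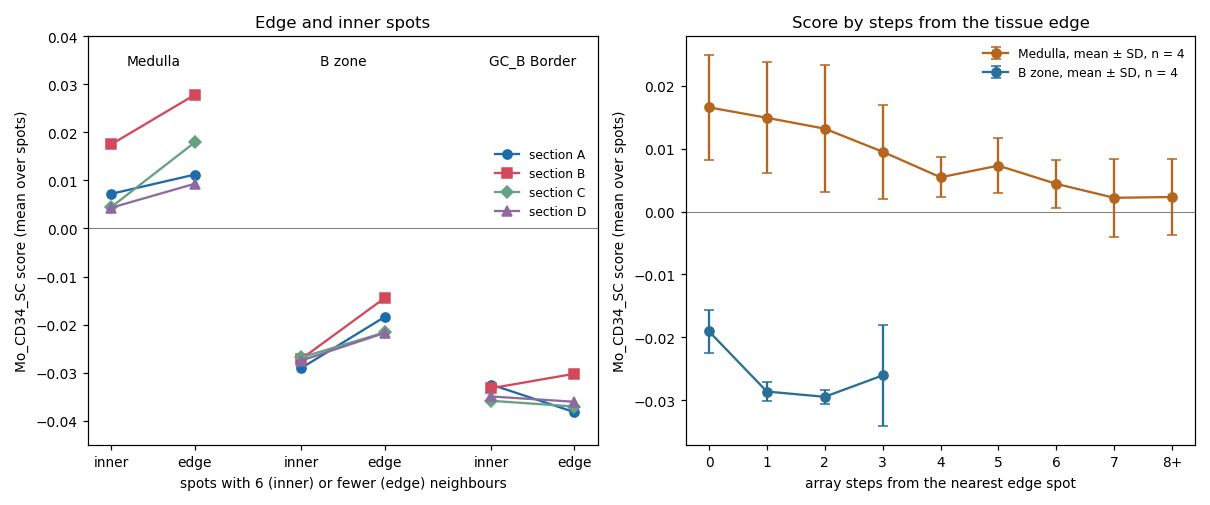
Left, mean Mo_CD34_SC score (no unit) of inner and edge spots in Medulla, the B zone and GC_B Border, with 1 line for each section; right, the mean score (± SD over 4 sections) by array steps from the nearest edge spot, for Medulla to 8 or more steps and for the B zone to 3 steps, beyond which its spots are few and not drawn. All 4 lines rise from inner to edge in Medulla and in the B zone, and 1 of 4 rises in GC_B Border.

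Read by distance from the edge, in contrasts picked after the steps had been seen and so given without a test, the score in Medulla declined over several steps, from 0.0166 at the edge to 0.0149, 0.0132 and 0.00952 at 1, 2 and 3 steps and 0.00232 at 8 or more steps (means of 4 sections). Spots at steps 0 to 2 exceeded those at 6 or more by 0.00938, 0.0183, 0.0132 and 0.00759 (0.0121 ± 0.00473, n = 4). The first step carried little of this outside section C: step 0 minus step 1 was 0.00627 in C and between −0.000179 and 0.000316 in the other 3.

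In the B zone the profile was not monotonic. Step 0 had −0.0191, steps 1 and 2 had −0.0286 and −0.0295, and step 3 had −0.0261 (means of 4 sections). Deeper B zone spots were few, and the 37 at step 4 and 9 at step 5 had −0.0156 and −0.0151, above the level at the edge. The drop from step 0 to step 1 was 0.0104, 0.0137, 0.00538 and 0.00881 (0.00956 ± 0.00345, positive in 4 of 4 sections). The same contrast in Medulla was smaller in 3 of 4 sections, with a B zone minus Medulla difference of 0.00790 ± 0.00628.

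GC_B Border also had a low first step behind its edge. Its means were −0.0382, −0.0302, −0.0370 and −0.0361 at step 0 and −0.0447, −0.0438, −0.0417 and −0.0422 at step 1 in sections A to D, so the edge was higher than the next step in 4 of 4 sections, as in the B zone. Further in, the score rose to −0.0370, −0.0282 and −0.0241 at steps 2, 3 and 4 (means of 4 sections), so the mean over all inner spots was not below the edge mean in 3 of 4 sections.

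Depth and RNA make-up also moved with the edge. Mean UMIs per spot were 8415 ± 3193 at the edge and 6816 ± 3333 inside, with higher values at the edge in every section. In the B zone the means were 10279 and 7604, and in Medulla 5046 and 4165. The percent of UMIs from mitochondrial genes was 6.27 ± 0.187 at the edge and 4.46 ± 0.621 inside, 6.13 against 4.63 in the B zone and 7.06 against 5.30 in Medulla. The part of the mitochondrial share in the edge difference was not tested. For depth, edge and inner spots were matched within quartiles of UMIs cut over all spots of the section. The difference was then 0.00697 in Medulla and 0.0107 in the B zone, positive in 4 of 4 sections in each region. Edge and inner depth can still differ inside such wide quartiles, and a finer match within regions was not tested.

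The score was clumped in space. Moran's I over pairs of adjacent spots, a correlation of each spot with its neighbours, was 0.646, 0.693, 0.587 and 0.553 in sections A to D (0.620 ± 0.0622). Adjacent spots share tissue and may share RNA that spread sideways, so no p-value was taken from spots. With the mean of each region removed the value was 0.214, 0.261, 0.200 and 0.176, so part of the clumping was finer than the named regions. Within single regions it was 0.171, 0.362, 0.328 and 0.272 in Medulla and 0.378, 0.276, 0.188 and 0.174 in the B zone. Clumping was not particular to the SC scores. The plasma cell marker score had 0.620 ± 0.0962 over adjacent spots, and 0.395 ± 0.0235 with region means removed.

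Over adjacent spots of whole sections, Mo_CD34_SC was more clumped than each of the other SC scores in every section. Moran's I of adjacent spots was 0.568 ± 0.0952 for Mo_Inmt_SC, 0.551 ± 0.108 for Mo_Nr4a1Inmt_SC and 0.392 ± 0.141 for Mo_Nr4a1_SC. The within-section excess of Mo_CD34_SC was 0.0519 ± 0.0395, 0.0684 ± 0.0473 and 0.228 ± 0.0809 over these 3 in the same order, and with region means removed it was 0.0751 ± 0.0287, 0.0984 ± 0.00950 and 0.116 ± 0.0312. Each of the 6 differences was positive in 4 of 4 sections (exact two-sided sign-flip permutation test, p = 0.125 and adjusted p = 0.125 for each). Within the T zone alone Moran's I was 0.176 ± 0.0956 for Mo_CD34_SC and 0.199 ± 0.107 for Mo_Inmt_SC. For Mo_Nr4a1Inmt_SC and Mo_Nr4a1_SC it was 0.151 ± 0.0858 and 0.124 ± 0.0854 there. Within Medulla of section A, Mo_Inmt_SC had 0.173 and Mo_CD34_SC 0.171.

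The clumps were also wide. At 5 steps Moran's I was 0.214 ± 0.0223 for Mo_CD34_SC, close to 0.213 ± 0.0362 for Mo_Inmt_SC and 0.205 ± 0.0366 for Mo_Nr4a1Inmt_SC. Mo_Nr4a1_SC had 0.136 ± 0.0576. In section A, Mo_Inmt_SC and Mo_Nr4a1Inmt_SC were higher there, at 0.243 and 0.232 against 0.198. Further out Mo_CD34_SC had 0.147 ± 0.0185 at 8 steps and 0.0879 ± 0.0167 at 10 steps. At 10 steps the values were 0.0382 ± 0.00707 for Mo_Inmt_SC, 0.0303 ± 0.00656 for Mo_Nr4a1Inmt_SC and 0.00422 ± 0.0130 for Mo_Nr4a1_SC. Mo_CD34_SC first fell below 0 at 12, 13, 14 and 14 steps in sections A to D. Mo_Inmt_SC did so at 12 steps in each section, and Mo_Nr4a1_SC at 11, 11, 10 and 10.

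**Figure D4:**
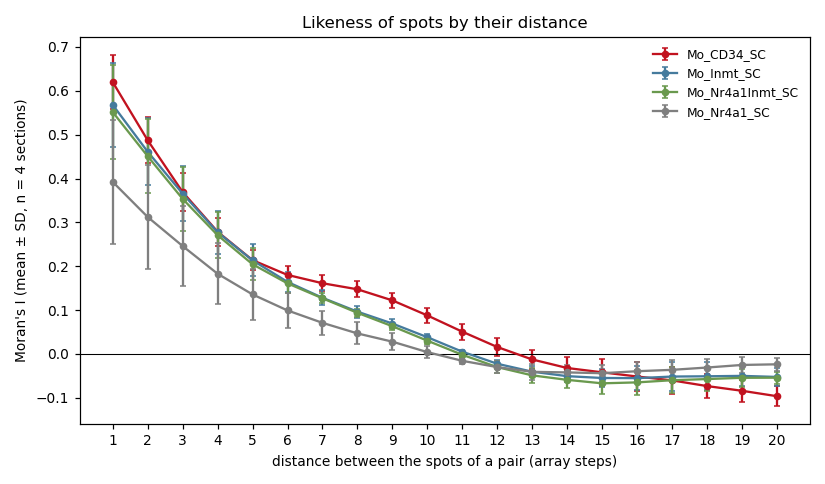
Moran's I (vertical axis, mean ± SD of 4 sections) of the 4 SC scores over pairs of spots 1 to 20 array steps apart (horizontal axis). Mo_CD34_SC starts highest, at 0.620, and has a shoulder between 6 and 10 steps, where it lies above the other 3 curves.

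The 5% of spots with the highest score in each section made a set of 82, 94, 93 and 94 spots, 363 in all. Since the score itself picked them, their place is a description. The lowest member and the highest spot left out had scores of 0.0273 and 0.0272 in section A, 0.0369 and 0.0364 in B, 0.0308 and 0.0307 in C, and 0.0289 and 0.0287 in D.

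Most of these spots were medullary. Medulla held 334 of 363, that is 92.7%, 95.7%, 91.4% and 88.3% of the set (exact binomial 95% intervals from 80.0% to 98.8%, which cover counting error only), while it made up 29.0%, 25.5%, 30.4% and 32.2% of all spots. The T zone held 19, of which 15 lay 1 step from a Medulla spot. Of all T zone spots, 496 of 1834 lay at that distance, and 3.06% ± 1.89 of them were in the set. GC_Medulla Border and the B zone held 5 each, and GC_T Border, GC_B Border, DZ and LZ held 0. At the other end, of the 363 spots with the lowest scores 193 were in DZ, 132 in LZ, 24 in GC_B Border and 12 in the B zone.

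High spots gathered towards the outer border of the medulla. The edge held 18.3%, 26.6%, 31.2% and 21.3% of them, against 15.0%, 13.9%, 14.1% and 13.9% of all spots. Of Medulla spots it held 15.7%, 16.3%, 16.1% and 15.0%. Exact binomial 95% intervals covered the Medulla share in sections A (10.6% to 28.4%) and D (13.5% to 30.9%). They lay above it in B (18.0% to 36.7%) and C (22.0% to 41.6%). Within 2 steps of the edge lay 51.2%, 71.3%, 64.5% and 55.3% of the high spots, against 42.2%, 39.6%, 40.0% and 39.5% of all spots. The share of Medulla spots that belonged to the set fell from 25.0% at the edge to 21.9%, 21.2% and 16.3% at 1, 2 and 3 steps and 6.02% at 8 or more steps (means of 4 sections). For the other scores the edge share of the equally sized set was 19.5% ± 2.09 for Mo_Inmt_SC, 18.9% ± 2.96 for Mo_Nr4a1Inmt_SC and 12.7% ± 1.42 for Mo_Nr4a1_SC, against 24.3% ± 5.71 for Mo_CD34_SC. The ranges overlap, and in section A Mo_CD34_SC and Mo_Inmt_SC had the same share of 18.3%.

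The high spots formed many small groups. Joined by adjacency they fell into 46, 37, 45 and 48 groups, of which 30, 23, 29 and 34 were single spots. The largest group held 8, 24, 21 and 11 spots. Of the high spots, 63.4%, 75.5%, 68.8% and 63.8% had a neighbour in the set. The upper piece held 68.3%, 69.1%, 72.0% and 62.8% of the set and 60.0%, 54.9%, 61.2% and 60.9% of Medulla spots. Median UMIs of the set were 4908.5, 7240.5, 2836 and 2914.5, above the Medulla medians of 3850, 6986, 2128 and 2537.5. They lay below the medians over all spots of 7726.5, 10528, 3677.5 and 3836. Of the set, 8 of 363 spots had fewer than 1000 UMIs.

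One group of high spots lay in section C on a narrow outgrowth of tissue, picked after the map was seen but set by position alone (at least 8 joined spots left over when the tissue is opened with a disc of radius 3). It counted 12 spots, 11 of them named Medulla, and 10 belonged to the top set. Their scores ran from −0.0122 through a median of 0.0734 to 0.117, against a mean of 0.00535 in the other Medulla spots of section C and 0.0127 in its other Medulla edge spots. The mean percentile rank there was 95.5 for Mo_CD34_SC against 73.6 in other Medulla, 89.6 against 75.4 for Mo_Nr4a1Inmt_SC, 80.8 against 75.6 for Mo_Inmt_SC and 71.9 against 68.1 for Mo_Nr4a1_SC, while the plasma cell marker score ranked lower, at 56.5 against 64.4. Median UMIs were 3025 against 2081 and mitochondrial UMIs 7.76% against 5.48%. Without these spots the Medulla edge difference over the 4 sections was 0.00700, positive in 4 of 4.

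Gradients also ran through the regions by distance from other regions, with edge spots kept in. In the T zone the score declined from −0.00532 ± 0.00337 in spots 1 step from Medulla to −0.0141 ± 0.00130 at 2 steps and −0.0186 ± 0.00221 at 3, and it then stayed between −0.0198 and −0.0175 out to 7 or more steps. The 1 step minus 3 or more steps difference was 0.0179, 0.0140, 0.00913 and 0.0118, positive in 4 of 4 sections. Depth ran the other way, with mean UMIs of 5639 at 1 step and 6938 at 3 steps, and once a linear dependence on log10 UMIs was taken out the difference was 0.00792. That fit was made over all spots of a section, where mean Spearman's rho with UMIs was −0.444, against −0.123 within the T zone. The drop from 0.0132 thus cannot be read as the part of depth inside the T zone. The other SC scores had T zone differences of 0.0187 ± 0.00565 (Mo_Inmt_SC), 0.0170 ± 0.00722 (Mo_Nr4a1_SC) and 0.0150 ± 0.00540 (Mo_Nr4a1Inmt_SC).

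On the medulla side the score rose with distance from the germinal centre. Within Medulla its mean Spearman's rho was 0.251 with steps from a germinal centre and −0.214 with steps from the tissue edge. These gradients were not separated. The score was −0.00712 ± 0.00384 at 1 step from a DZ or LZ spot, which is GC_Medulla Border, and 0.00169 ± 0.00572 at 2 steps. It was 0.00651 ± 0.00663 at 6 steps and 0.0192 ± 0.0113 at 10 or more steps. In section B it climbed from −0.00139 to 0.0357, and in section D from −0.00891 to 0.0130. Inside the germinal centre it was lowest away from the rim: DZ spots had −0.0459 ± 0.00346 at 1 step from spots outside DZ and LZ and −0.0682 ± 0.00303 at 2 steps, with no overlap between sections, and LZ spots had −0.0558 ± 0.00411 and −0.0615 ± 0.00293. The DZ step came with more UMIs, 9569 against 12437 on average.

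To set Mo_CD34_SC beside the other SC scores, each was turned into a percentile rank within its section. Over the spots of a section Mo_CD34_SC correlated with Mo_Nr4a1Inmt_SC at Spearman's rho of 0.682 ± 0.0764, with Mo_Inmt_SC at 0.676 ± 0.0792 and with Mo_Nr4a1_SC at 0.477 ± 0.111 (descriptions over spots that share libraries and depth, n = 4 sections). Within Medulla the values were 0.472, 0.430 and 0.291 in the same order. Of the 363 top spots of Mo_CD34_SC, 157 were also in the top 5% of Mo_Nr4a1Inmt_SC, 136 in that of Mo_Inmt_SC, 107 in that of Mo_Nr4a1_SC and 70 in that of the plasma cell marker score, and 142 were in no other SC set. As means of sections these shares were 43.3%, 37.5%, 29.4%, 19.4% and 39.3%, while each set was 5% of all spots. Medulla held 95.6%, 95.2%, 90.2% and 83.9% of the other 4 sets in the same order. Overlap beyond this shared region was not tested. No source used here says whether the 4 gene lists share genes.

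The T zone was where Mo_CD34_SC ranked higher than the others. Its mean rank there was 51.6, 52.0, 52.7 and 53.6, against 40.5, 39.4, 39.8 and 39.7 for Mo_Inmt_SC. The rank minus the mean rank of the other 3 scores was 12.3, 13.8, 13.1 and 13.9 percentile points in sections A to D (13.3 ± 0.746), and 12.6 ± 1.20, 15.1 ± 1.01 and 12.1 ± 0.743 against Mo_Inmt_SC, Mo_Nr4a1_SC and Mo_Nr4a1Inmt_SC alone. GC_T Border also lay above 0 in each section, at 6.82 ± 3.81. Of the 5% of spots with the largest rank difference, 54 of 82, 75 of 94, 56 of 93 and 57 of 94 were in the T zone, which made up 26.2%, 25.8%, 24.5% and 24.5% of all spots.

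Rank differences average 0 over the spots of a section, so values above 0 in the T zone require values below 0 elsewhere. In the B cell areas the rank of Mo_CD34_SC minus the mean rank of the other 3 was below 0 in every section, at −7.59 ± 2.51 points in the B zone and −12.3 ± 1.49 in its border with the germinal centre, and at −6.64 ± 2.01 in DZ and −10.9 ± 0.817 in LZ. In DZ this did not hold against Mo_Nr4a1Inmt_SC alone, where the difference was −0.995 ± 1.43 with both signs among the sections. In Medulla the difference from the mean of the other 3 was −1.54, −0.296, 0.887 and 1.92, with both signs and a mean of 0.245 ± 1.49. The medullary rank was 76.1 ± 3.99 for Mo_CD34_SC and 78.0 ± 4.29 for Mo_Inmt_SC. Against single scores it was 3.96 ± 2.80 points above Mo_Nr4a1_SC and −1.90 ± 0.884 points from Mo_Inmt_SC, each in the same direction in 4 of 4 sections.

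**Figure D5:**
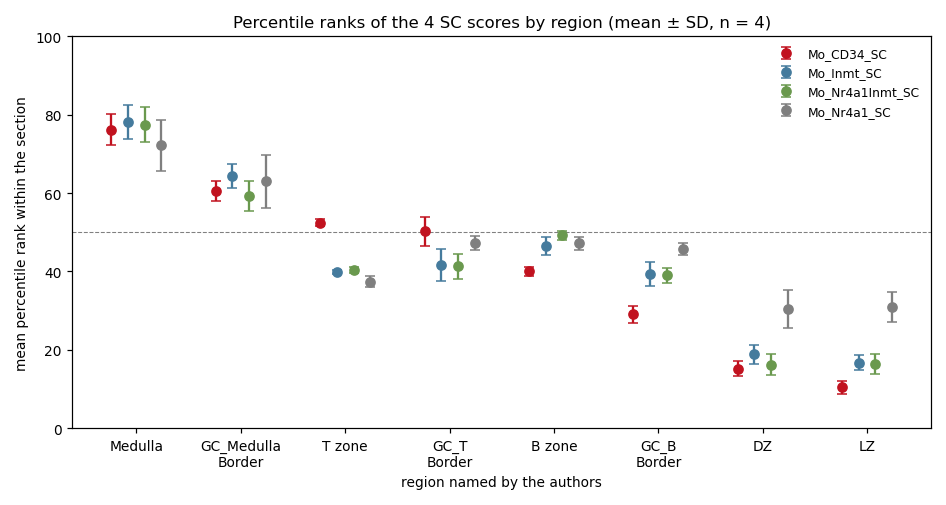
Mean percentile rank within the section (vertical axis, mean ± SD of 4 sections) of the 4 SC scores in each named region. Mo_CD34_SC lies above the other 3 scores in the T zone, at 52.5 ± 0.903, and below them in the B zone, GC_B Border, DZ and LZ.

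At the tissue edge the comparison of ranks depended on whether regions were kept apart. Over whole sections the rank of Mo_CD34_SC rose towards the edge by 4.70 ± 2.67 points, and the mean rank of the other 3 rose more: the edge minus inner value of the rank difference was −1.25, −4.67, −3.65 and −4.25 (−3.46 ± 1.53, below 0 in 4 of 4 sections, exact sign-flip permutation p = 0.125, adjusted p = 0.182 over 16 comparisons). Against Mo_Nr4a1_SC alone it was 0.761, −0.469, −0.110 and −4.61 (−1.11 ± 2.39, exact permutation p = 0.625), with both signs. Within Medulla it was 4.57, 2.82, 3.82 and 1.88, and within the B zone 9.29, 3.73, 4.53 and 5.76. There Mo_CD34_SC rose more than the mean of the others, by 3.27 ± 1.17 and 5.83 ± 2.45 points in 4 of 4 sections (exact permutation p = 0.125, adjusted p = 0.182 for each). The edge held 11 of the 1834 spots of the T zone, the region in which Mo_CD34_SC ranked above the others, and the part of this make-up in the opposite signs was not tested.

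Score by score, the Medulla edge excess of Mo_CD34_SC was positive in 4 of 4 sections against each of the other 3, at 2.04 ± 0.826 points against Mo_Inmt_SC, 5.47 ± 3.17 against Mo_Nr4a1_SC and 2.30 ± 1.20 against Mo_Nr4a1Inmt_SC. In the B zone it was 7.45 ± 2.90 against Mo_Inmt_SC and 6.45 ± 3.51 against Mo_Nr4a1_SC, in 4 of 4 sections each, and 3.58 ± 3.99 against Mo_Nr4a1Inmt_SC, positive in 3 of 4. In GC_B Border the value against the mean of the others was −2.10 ± 3.67 and changed sign between sections. The drop of the score over the first step from the B zone edge, 0.00956 for Mo_CD34_SC, was 0.000757 ± 0.00626 for Mo_Inmt_SC, 0.00272 ± 0.00242 for Mo_Nr4a1_SC and 0.00417 ± 0.00535 for Mo_Nr4a1Inmt_SC, each on its own scale.

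The score was related to depth in opposite ways in different regions. Over all spots its Spearman's rho with UMIs was −0.548, −0.358, −0.453 and −0.416, within Medulla 0.304, 0.175, 0.243 and 0.109, and within DZ −0.546, −0.237, −0.506 and −0.627. A linear fit on log10 UMIs within the section, added back to the section mean, brought the Medulla level to 0.000363 and the LZ level to −0.0458 and left Medulla highest and LZ lowest. It turned the order of GC_Medulla Border and the T zone, which then had −0.0143 and −0.0136. Regions differed in depth, from 4305 mean UMIs in Medulla to 11476 in LZ. A fit over all spots therefore also takes out region differences that go with depth. With the Mo_GC_vs_Mem score, which by its name sets germinal centre against memory cells, rho was −0.805 ± 0.0314 within DZ and −0.561 ± 0.0257 within LZ, and with the plasma cell marker score 0.732 ± 0.0514 within DZ and 0.216 ± 0.0730 within Medulla. The pieces differed slightly: upper minus lower was 0.00405 ± 0.00321 in Medulla and 0.00418 ± 0.00172 in the B zone, positive in 4 of 4 sections in each, and −0.00139 ± 0.00184 in the T zone.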

How the data were processed

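A deposited table with 1 line per Visium spot was the source of every value. Per the submitters' processing notes, reads were processed with Space Ranger 1.3.1 and Seurat 4.2.1 against mm10, with parameters that no source used here gives. The deposited UMI counts per spot are raw, and the deposited percent of mitochondrial UMIs was used as given. The authors deposited 6 gene-list scores per spot, and no source used here gives their genes or normalization. Spot positions were checked against 4 deposited alignment files. The 120 spots marked as tissue but absent from the table entered only as neighbours, in the alternative with neighbours from the tissue mark.

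Edge was defined as fewer than 6 neighbours with a score on the hexagonal array, and steps were counted on that array. A section entered a regional edge comparison with at least 3 edge and 3 inner spots. Means over spots were taken per section and the section was the unit (n = 4). Linear fits on log10 UMIs and quartiles of UMIs were set over all spots of a section, not within regions. Differences were tested with an exact permutation test that flips the signs of the section differences (two-sided, 16 sign assignments) and Benjamini-Hochberg adjustment within families of 6 (edge by region), 5 (between regions), 6 (Moran's I) and 16 (ranks). Scripts (Python 3.11.15, numpy 2.4.6, pandas 2.3.3, SciPy 1.17.1, matplotlib 3.10.9) were tested on simulated data. The table holds no single genes, so by the rule for named genes all scores could be named. The score, the regions and the comparisons were chosen with earlier results of these data known.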

Additional observations from a re-analysis of the deposited data

Results flagged for a closer look

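In 7 of 90 values with 4 sections, 1 section lay far from the other 3 by Dixon's criterion, which chance meets in about 1 of 20 such groups. The step 0 minus step 1 difference in Medulla was 0.00627 in section C and −0.000179 to 0.000316 elsewhere. The GC_Medulla Border level was −0.00139 in section B and −0.00947 to −0.00871 in the others, and the B zone level was −0.0222 in section B and −0.0250 to −0.0248 in the others. The Medulla edge rank difference against Mo_Inmt_SC was 0.816 in section B and 2.30 to 2.56 in the others. The GC_T Border rank difference after a fit on log10 UMIs was 14.5 in section C and 6.87 to 7.74 in the others. The standard deviation of the score over spots in section A was 0.0208 in GC_B Border, against 0.0167 to 0.0173, and 0.00968 in LZ, against 0.0163 to 0.0166.

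In 2 relations every section of Medulla and every section of DZ had opposite signs, and the differences were not tested. Only these 2 relations and this pair of regions were checked. Mean Spearman's rho of the score with UMIs was 0.208 in Medulla and −0.479 in DZ. With steps from the tissue edge it was −0.214 in Medulla and 0.322 in DZ. The signs were not particular to DZ. LZ (−0.356 with UMIs, 0.132 with steps) and GC_B Border (−0.178 and 0.237) shared them in every section. The T zone was below 0 in both relations in every section (−0.123 and −0.144). With UMIs the B zone, GC_T Border and GC_Medulla Border had both signs among the sections.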

How the results depend on the processing

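Of 272 alternative values for 27 results, 239 kept the direction of a tested mean or, for other values, lay within 1 SD over sections of the reported value. Part of this count was fixed in advance. Leaving out 1 section cannot reverse a sign shared by 4 of 4 sections or move a mean by 1 SD. Some alternatives changed nothing: the B zone edge difference stayed at 0.00858 with at least 1000 UMIs and without the narrow outgrowth. The count is thus no measure of steadiness. Keeping direction did not mean keeping size: the whole-section edge difference of 0.00675 ran down to 0.00112. The edge differences over whole sections, in Medulla, in the B zone and in LZ kept their sign in the mean under each alternative run. The LZ value rested on 4, 4 and 5 edge spots in 3 sections, and several of its alternatives held 2 sections or 1. After the linear fit on log10 UMIs it was 0.00611 ± 0.0102, positive in 2 of 3 sections. The GC_B Border edge difference of −0.00126 became 0.00228 after the linear fit on log10 UMIs, 0.000542 with matched UMI quartiles, 6.24e-05 with neighbours from the tissue mark, 0.00119 with 4 or fewer neighbours and 0.00441 within the upper piece, but −0.00589 within the lower piece and −0.00934 with a wider edge, and ran from −0.00268 to 0.000239 as sections were left out. The DZ edge difference of 0.00155 became −0.240 percentile points in ranks, −0.0151 after the fit, −0.00612 with matched quartiles, −0.00268 without spots on the frame of the capture area, −0.00306 with a wider edge and −0.000347 with 4 or fewer neighbours, and ran from −0.00223 to 0.00486 as sections were left out. The B zone minus Medulla edge difference ran from −0.00169 to 0.00327 as sections were left out. The cause was not tested.

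Moran's I was 0.213 with region means removed from the deposited values and, separately, 0.492 after the fit. After the fit the top 5% held 81.8% Medulla and 30.5% edge spots; a top 10% held 86.2% Medulla. Levels after the fit were 0.000363 in Medulla, −0.0143 in GC_Medulla Border, −0.0136 in the T zone, −0.0135 in GC_T Border, −0.0441 in DZ, −0.0458 in LZ, −0.0185 in the B zone and −0.0292 in GC_B Border. Other moved levels were −0.0139 for GC_T Border within the lower piece, −0.0276 for the B zone without edge spots and −0.0223 and −0.0265 within its upper and lower pieces, and −0.0580 for DZ with medians. An alternative that treats enclosed holes as inner gave no value, since 0 were found.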
